A study of Oryza sativa Japonica Group with 36 samples.

Results

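The genes of photorespiration and of catalase described here, 10 in number, were followed in the flag leaf (FL) and the second leaf (SL) of rice during grain-filling. They were chosen by gene identifier, not by their values, and are 10 of the 38026 genes in the expression table. They encode the glycolate oxidases GLO1 (OS03G0786100) and GLO3 (OS04G0623500), the glycine decarboxylase subunits GDCP (OS01G0711400) and GDCH (OS10G0516100), and the serine hydroxymethyltransferase SHMT1 (OS03G0738400). The others are the hydroxypyruvate reductase HPR1 (OS02G0101500), the glycerate kinase GLYK (OS01G0682500), and the catalases CATA (OS02G0115700), CATB (OS06G0727200), and CATC (OS03G0131200).

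Photorespiration starts when Rubisco takes up oxygen in place of carbon dioxide and forms phosphoglycolate. The carbon is salvaged in a cycle through the chloroplast, the peroxisome, and the mitochondrion. Glycolate oxidase produces hydrogen peroxide in the peroxisome, and catalase breaks it down there. The mitochondrial glycine step releases carbon dioxide and ammonia, and the ammonia is taken up again in the chloroplast.

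Leaves of the japonica cultivar Dongjin, grown in a paddy field, were collected at 6 time points after heading, given in days after heading (DAH), namely 4, 12, and 20 and then 28, 36, and 44 DAH. No group carried a treatment or a mutation. Each leaf and time point had 3 biological replicates, giving 12 groups and 36 libraries for mRNA-sequencing. A replicate combined the middle parts of several independent leaves, and the replicates of a time point were sampled together in the morning. The p-values thus measure the spread between such pools from 1 field as it stood after normalization.

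The libraries held 5713546 to 29789199 reads on genes, with a median of 15073590, and the smallest number of reads of any of the 10 genes in a library was 6, for GLO3. The summed level of 4 green leaf genes (RBCS-A, RBCS-C, RCA, and CAB2R) was 7366 to 19675 CPM in every library, which fits the leaf labels. GLUA1, a grain storage protein gene, was at 13.9 CPM in FL and 22.3 CPM in SL of replicate 2 at 20 DAH and at most 0.540 CPM elsewhere. The library of SL at 44 DAH replicate 2 had the lowest mean correlation with its replicates (0.956). Where a call named here was lost without them, this is stated beside it. In samples from the middle parts of leaves, fewer cells of a type and less RNA per cell cannot be told apart.

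Levels are given in CPM, reads on a gene scaled to a common effective library size. Changes are given as log2 differences of quantile-normalized log2(CPM + 1) with their standard errors (SE), fitted with limma for 22057 genes, and a gene was called at an adjusted p below 0.05. All 10 genes passed the filter on low values. The quantile normalization mattered for GLO1, GDCP, SHMT1, HPR1, and CATC, whose mean log2 level was at least 10. It shifted their group means by -0.33 to -0.19 in FL at 4 DAH, by 0.14 to 0.26 in FL at 20 DAH, and by 0.16 to 0.21 in FL at 28 DAH, whereas the median of all tested genes moved by -0.06 to 0.04. Values without this step are therefore given beside the results of these 5 genes where they differ in call or direction. The plot of levels by library shows the CPM values before this step. Quantile normalization also gave the replicates of some groups the same value for some of these genes. SHMT1 in FL at 12 DAH, for example, read 4172, 2664, and 2705 CPM and had a log2 value of 11.48 in each library. For such groups the SE and p-values do not carry the full spread between pools.

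**Figure D1:**
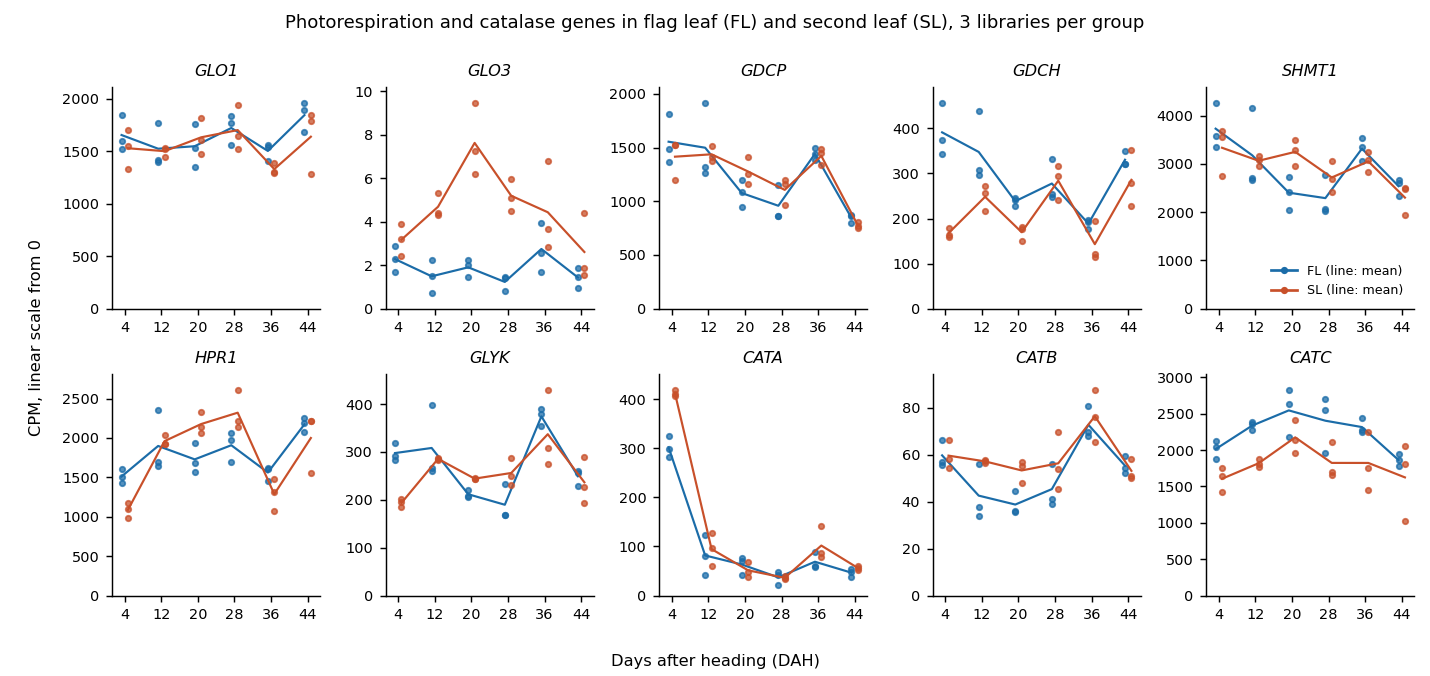
CPM (linear axis from 0) of the 10 genes against days after heading, with 1 point per library and a line through the mean of 3 libraries in FL (blue) and SL (orange). CATA drops after 4 DAH in both leaves, GLO3 is higher in SL in the middle of the time course, and several genes turn up or down at 36 DAH in both leaves.

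GLO1, a peroxisomal enzyme that oxidizes glycolate to glyoxylate, varied least of the 10 genes, with a ratio of 1.39 between its highest and lowest group mean. Over all libraries it ranged from 1287 to 1959 CPM. At 20 DAH it read 1354, 1531, and 1760 CPM in FL and 1609, 1821, and 1470 CPM in SL, so the leaves overlapped. The fit gave FL minus SL as 0.20 (SE 0.07, adjusted p = 0.0343), a call kept under 2 of the 9 alternative settings. The direction of GLO1 was reversed without quantile normalization (-0.08, adjusted p = 0.707). Likewise, its rise from 4 to 20 DAH over both leaves (0.31, adjusted p = 5.87e-06) was -0.00 without that step (adjusted p = 0.992). The direction of GLO1 between the leaves and over time at 20 DAH thus depended on the scaling. Its rises from 4 DAH to 28 and 44 DAH over both leaves were lost without quantile normalization and with edgeR. The adjusted p reached 0.354 and 0.273, respectively.

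GLO3, another glycolate oxidase of the same family, was detected at a low level of 0.735 to 9.45 CPM, from 6 to 137 reads per library. It was higher in SL than in FL in the middle of grain-filling. At 12 DAH it read 1.48, 2.24, and 0.735 CPM in FL against 4.32, 5.34, and 4.41 CPM in SL. At 20 DAH it read 1.46, 2.25, and 1.99 CPM in FL against 6.19, 7.23, and 9.45 CPM in SL. At 28 DAH it read 1.41, 0.829, and 1.44 CPM in FL against 4.51, 5.09, and 5.97 CPM in SL. The leaves did not overlap at these 3 time points, and every SL library was higher than every FL library.

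FL minus SL for GLO3 was -1.27 at 12 DAH (SE 0.29, adjusted p = 0.00395), -1.65 at 20 DAH (adjusted p = 0.000109), and -1.56 at 28 DAH (adjusted p = 0.000232). The call at 12 DAH was lost without replicate 3. Within SL, GLO3 rose by 1.18 from 4 to 20 DAH (SE 0.29, adjusted p = 0.00142), whereas the value in FL was -0.20 (adjusted p = 0.604). The 1 added to each CPM value makes these differences smaller than the ratios of the reads, and edgeR on the recovered reads gave -2.04 for FL minus SL at 20 DAH (adjusted p = 0.000159).

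GDCP is the subunit of glycine decarboxylase that removes the carboxyl group of glycine. At 4 DAH it read 1810, 1489, and 1363 CPM in FL and 1520, 1523, and 1202 CPM in SL. At 44 DAH it read 797, 864, and 871 CPM in FL and 805, 746, and 774 CPM in SL, below every library of 4 DAH. The fall over both leaves was -0.60 (SE 0.05, adjusted p = 3.88e-11), and -0.86 without quantile normalization. Before that, the scaling set the call in FL: the change from 4 to 20 DAH was 0.03 (adjusted p = 0.743) with quantile normalization and -0.53 without it (adjusted p = 0.00374). GDCP did not pass the test between the leaves at any time point.

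GDCH is the lipoate-bearing subunit that carries the aminomethyl group between the other subunits of the complex. At 4 DAH it read 456, 374, and 344 CPM in FL and 164, 178, and 160 CPM in SL, and the leaves did not overlap. FL minus SL at 4 DAH was 0.97 (SE 0.16, adjusted p = 0.000114), the largest positive leaf difference among the 10 genes at any time point. At 20 DAH the levels were 228, 241, and 246 CPM in FL and 176, 182, and 150 CPM in SL, a difference of 0.52 (adjusted p = 0.0131) that was not called without replicate 1 or without replicate 2. At 28 DAH the leaves overlapped, with 253, 248, and 331 CPM in FL and 241, 294, and 317 CPM in SL.

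In SL GDCH rose by 0.65 from 4 to 28 DAH (SE 0.16, adjusted p = 0.00111) and by 0.78 from 4 to 44 DAH (adjusted p = 0.000121). In FL the corresponding values were -0.31 (adjusted p = 0.102) and -0.04 (adjusted p = 0.851). The difference between the leaves in these changes was -0.95 at 28 DAH (SE 0.22, adjusted p = 0.00489) and -0.82 at 44 DAH (adjusted p = 0.0449). Both of these calls were lost without replicate 1 or without replicate 2 (adjusted p up to 0.118 and 0.476), and that at 44 DAH also without the filter on low values, without the trend of limma, and without SL 44 DAH replicate 2. The rises of GDCH within SL were kept under all 9 alternative settings of the processing.

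SHMT1 makes serine from glycine and the methylene group that glycine decarboxylase releases. At 4 DAH it read 4261, 3590, and 3347 CPM in FL and 3693, 3558, and 2758 CPM in SL. At 44 DAH it read 2345, 2664, and 2614 CPM in FL and 2492, 1934, and 2482 CPM in SL, below all 4 DAH libraries. SHMT1 fell by 0.32 from 4 to 20 DAH (SE 0.06, adjusted p = 1.67e-05) and by 0.56 from 4 to 44 DAH (adjusted p = 6.61e-10) over both leaves. Within SL alone, the fall from 4 to 20 DAH was lost without quantile normalization and with edgeR (adjusted p up to 0.91). FL minus SL at 28 DAH was -0.32 (SE 0.08, adjusted p = 0.00416), which was not called without quantile normalization (-0.26, adjusted p = 0.288). It was also not called without replicate 1, without replicate 2, without the filter on low values, or with edgeR. At 20 DAH, the reverse held, with -0.12 (adjusted p = 0.255) with quantile normalization and -0.44 (adjusted p = 0.045) without that step.

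HPR1, the peroxisomal enzyme that reduces hydroxypyruvate to glycerate, was lowest at 4 and 36 DAH in SL. In SL it read 1100, 1176, and 987 CPM at 4 DAH, 1918, 2039, and 1922 CPM at 12 DAH, and 2137, 2608, and 2218 CPM at 28 DAH. The groups at 12 and 28 DAH lay above all 4 DAH libraries of SL. In FL it read 1601, 1500, and 1431 CPM at 4 DAH and 2081, 2185, and 2254 CPM at 44 DAH, again without overlap. HPR1 rose over both leaves by 0.82, 0.86, 1.01, and 0.92 from 4 DAH to 12, 20, 28, and 44 DAH, respectively (SE 0.07 each, adjusted p at most 8.97e-11). Without quantile normalization these 4 rises were 0.58, 0.60, 0.71, and 0.69 and were still called.

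The rise of HPR1 within FL was less firm. At 12, 20, and 28 DAH it was 0.62, 0.71, and 0.79, and without quantile normalization 0.31 (adjusted p = 0.111), 0.19 (adjusted p = 0.297), and 0.33 (adjusted p = 0.0534). In SL the rise was called under both scalings at these time points. FL minus SL was 0.31 at 4 DAH (SE 0.09, adjusted p = 0.0266). This call was lost without any 1 of the 3 replicates and without the filter on low values.

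GLYK, the chloroplast enzyme that phosphorylates glycerate and so returns the carbon to the Calvin cycle, went apart in the leaves. At 4 DAH it read 318, 292, and 283 CPM in FL and 184, 202, and 195 CPM in SL. At 28 DAH it read 168, 168, and 234 CPM in FL and 231, 249, and 288 CPM in SL. The order of the leaves was reversed between these time points, with an overlap of 1 FL library at 28 DAH. FL minus SL was 0.38 at 4 DAH (SE 0.13, adjusted p = 0.0493) and -0.42 at 28 DAH (SE 0.13, adjusted p = 0.0211). The first was lost without any 1 of the 3 replicates, without the filter on low values, and without the trend of limma. The second was lost without replicate 1, without replicate 2, and with edgeR. The change from 4 to 28 DAH was -0.53 in FL (adjusted p = 0.00122) and 0.28 in SL (adjusted p = 0.0804), a difference between the leaves of -0.80 (SE 0.19, adjusted p = 0.00438). This difference was likewise lost without replicate 1 or without replicate 2 (adjusted p up to 0.134), and the fall in FL without replicate 1.

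CATA, a catalase, changed most over time of the 10 genes, with a ratio of 11.4 between its highest and lowest group mean. At 4 DAH it read 283, 299, and 324 CPM in FL and 418, 406, and 411 CPM in SL. At 12 DAH it read 41.8, 122, and 80.4 CPM in FL and 59.6, 96.9, and 127 CPM in SL. At 28 DAH it read 47.3, 41.9, and 21.6 CPM in FL and 35.4, 32.96, and 39.8 CPM in SL. All 4 DAH libraries lay above all libraries of the later time points in both leaves.

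CATA fell by 2.10, 2.63, 3.27, 2.01, and 2.76 on the log2 scale over both leaves from 4 DAH to the 5 later time points, in order of time (SE 0.23 each, adjusted p from 3.67e-13 to 2.66e-08). These calls were kept under all 9 alternative settings, over both leaves and within each leaf. At 4 DAH every SL library was above every FL library, but the difference of -0.65 had a large error (SE 0.32) and was not called (adjusted p = 0.193). Senescence markers moved the other way. The summed level of SGR, NYC1, and NAP was 161 to 187 CPM at 4 DAH and at least 289 CPM in all later libraries, and its part in the CATA result was not tested.

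CATB, a second catalase, was lower in FL than in SL at 12 and 20 DAH. At 20 DAH it read 44.5, 35.8, and 36.03 CPM in FL and 55.0, 48.0, and 57.0 CPM in SL, without overlap. FL minus SL was -0.45 at 12 DAH (SE 0.13, adjusted p = 0.0244) and -0.47 at 20 DAH (adjusted p = 0.00927). Both calls were lost without replicate 2 or without replicate 3, and the first was also lost without quantile normalization (adjusted p = 0.0588) and with edgeR.

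CATC, the catalase known in rice for removing photorespiratory peroxide in leaves, was higher in FL on average. At 12 DAH it read 2273, 2355, and 2384 CPM in FL and 1766, 1810, and 1881 CPM in SL, without overlap. At 28 DAH it read 2699, 2551, and 1963 CPM in FL and 1660, 2112, and 1699 CPM in SL, with overlap. FL minus SL was 0.52 at 20 DAH (SE 0.17, adjusted p = 0.0219) and 0.57 at 28 DAH (adjusted p = 0.0156), and without quantile normalization 0.22 (adjusted p = 0.381) and 0.39 (adjusted p = 0.123). Both calls were also lost without replicate 1, without replicate 2, and with edgeR, and that at 20 DAH without the filter on low values. The average over the time points was the same under both scalings to within 0.02 and is given with the comparison of the leaves.

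The first comparison asked where FL and SL differed at the same time after heading. At 4 DAH, 3 of the 10 genes (GDCH, HPR1, and GLYK) were called, all higher in FL, where 14.1% of all tested genes were called and 7.56% were called higher. At 12 DAH 2 genes (GLO3 and CATB) were called, both lower in FL, against 13.5% of all genes and 7.01% called lower. At 20 DAH 5 genes were called, with GLO1, GDCH, and CATC higher and GLO3 and CATB lower in FL, against 30.4% of all genes and 15.2% called in each direction. The direction of GLO1 among these was reversed without quantile normalization. Without replicate 2 of 20 DAH in both leaves, GLO3 and CATB were still called and GLO1, GDCH, and CATC were not.

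At 28 DAH 4 genes were called, with CATC higher and GLO3, SHMT1, and GLYK lower in FL, against 23.7% of all genes, 10.3% called higher and 13.4% lower. At 36 DAH limma called 0 of the 10 genes, against 10.9% of all genes, with 3 at an unadjusted p below 0.05, and edgeR also called 0. At 44 DAH limma and edgeR called 0 of them, against 3.8% of all genes, and 0 had an unadjusted p below 0.05. The median difference of the 10 genes lay between -0.14 and 0.09 at the 6 time points, and that of all tested genes between -0.03 and 0.01.

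Averaged over the 6 time points, 4 of the 10 genes were called, 2 in each direction, against 48.8% of all genes, 22.4% called higher and 26.4% lower. GLO3 was lower in FL (-0.97, SE 0.12, adjusted p = 1.22e-07), and so was CATB (-0.23, SE 0.05, adjusted p = 0.000959). GDCH was higher in FL (0.40, SE 0.06, adjusted p = 1.05e-05), and so was CATC (0.34, SE 0.07, adjusted p = 0.000236). These 4 calls were kept under all 9 alternative settings. The plot of leaf differences shows them beside the genes whose leaves stayed close.

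**Figure D2:**
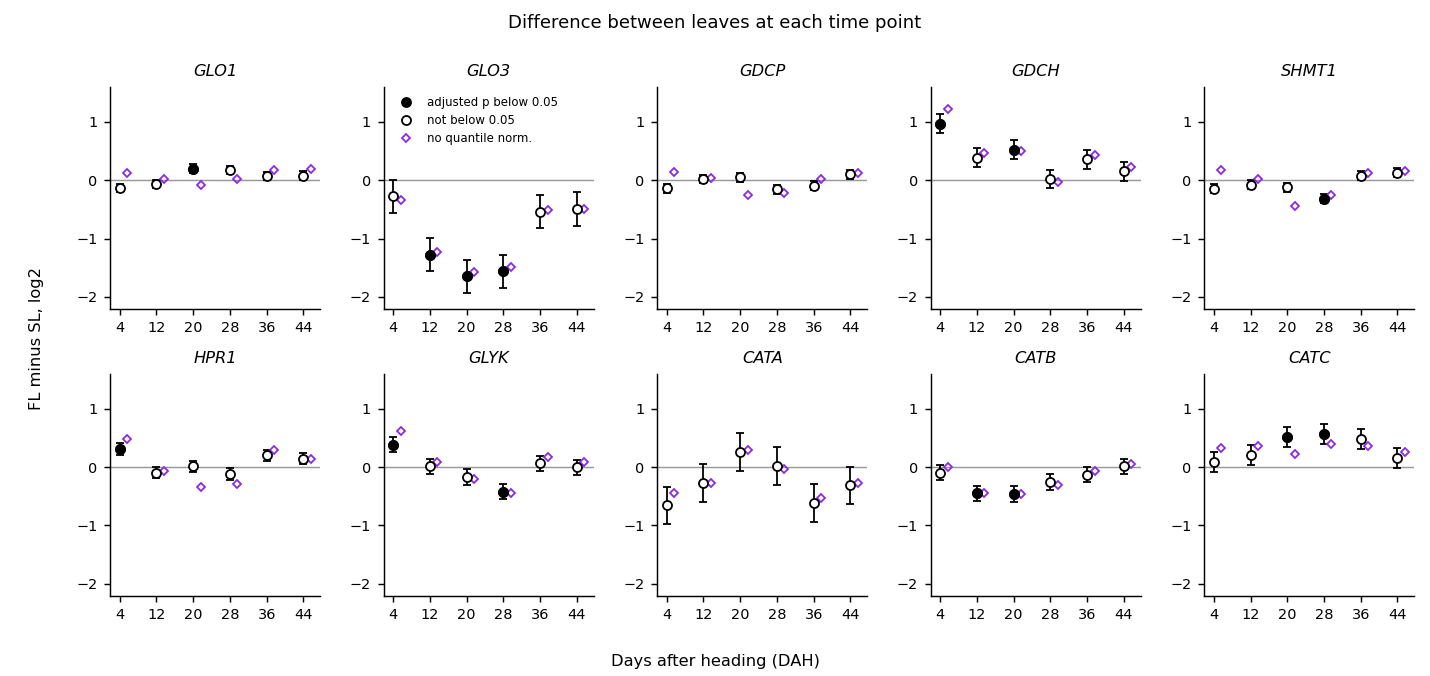
FL minus SL (log2, y axis) against days after heading for the 10 genes, with the SE as bars, filled circles for an adjusted p below 0.05, and purple diamonds for the value without quantile normalization. GLO3 lies at -1.27, -1.65, and -1.56 at 12, 20, and 28 DAH, GDCH starts at 0.97 at 4 DAH, and GLO1 at 20 DAH has its diamond on the other side of 0.

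The second comparison asked how the genes changed from 4 DAH over both leaves. At 12 DAH 5 of the 10 genes were called against 43.7% of all genes, at 20 DAH 8 against 56%, and at 28 DAH 7 against 64.3%. At 36 DAH 7 were called against 45.2% of all genes, and at 44 DAH 6 against 67.5%. Without quantile normalization, 4 were called at 28 DAH and 4 at 36 DAH. Without replicate 2 of 20 DAH in both leaves, the call of GLO3 at 20 DAH over both leaves was lost. That call was kept under 1 of the 9 alternative settings. The median change of the 10 genes lay between -0.08 and 0.17, beside -0.00 to 0.03 for all tested genes.

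HPR1 was higher and CATA and SHMT1 were lower than at 4 DAH at all 5 later time points with quantile normalization. The rise of HPR1 at 36 DAH (0.28, adjusted p = 0.000935) was lost without quantile normalization (0.14, adjusted p = 0.284), without replicate 1, and with edgeR. For SHMT1 the changes at 12 and 36 DAH were lost without quantile normalization as well (adjusted p = 0.218 and 0.35) and with edgeR. Those at 12, 28, and 36 DAH were lost without replicate 1, and that at 36 DAH also without replicate 2 and without the filter on low values. CATC was called at 12, 20, 28, and 36 DAH, and of these only the rise of 0.59 at 20 DAH (SE 0.12, adjusted p = 0.000148) was kept under all 9 alternative settings. CATB was lower at 12, 20, and 28 DAH (-0.29, -0.36, and -0.27) and higher at 36 DAH (0.39, SE 0.09, adjusted p = 0.00107). Of these CATB calls, that at 36 DAH was kept under all 9 alternative settings. Those at 12 and 28 DAH were lost without replicate 2 or without replicate 3, that at 20 DAH without replicate 2, and that at 28 DAH also without quantile normalization and with edgeR.

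**Figure D3:**
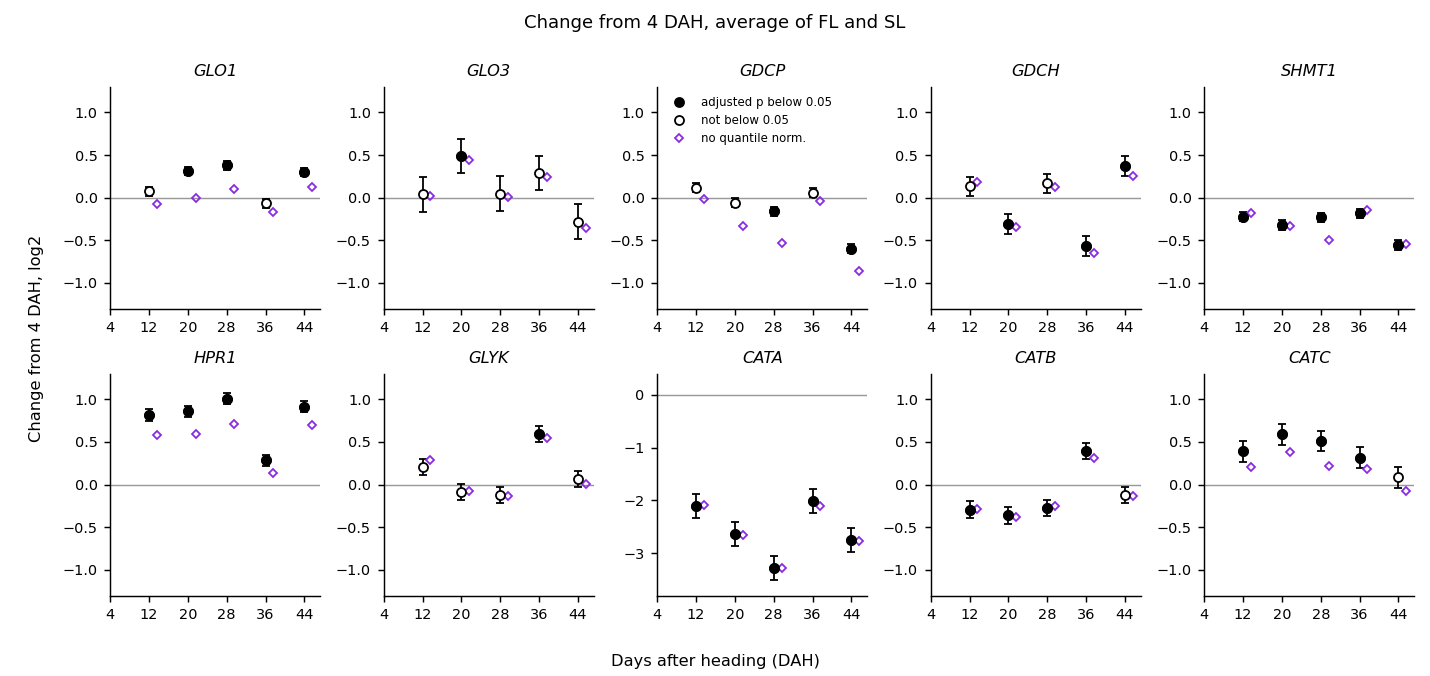
Change from 4 DAH (log2, average of both leaves, y axis) at 12 to 44 DAH for the 10 genes, with the SE as bars, filled circles for an adjusted p below 0.05, and purple diamonds for the value without quantile normalization (the CATA axis has another range). CATA lies between -3.27 and -2.01 throughout, HPR1 between 0.28 and 1.01, and the diamonds of GLO1, GDCP, HPR1, and CATC are mostly lower than the circles.

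The third comparison asked whether 36 DAH stood apart from its neighbours, taken as the mean of 28 and 44 DAH over both leaves. Of the 10 genes, 9 were called, 6 higher and 3 lower, where 63.7% of all tested genes were called, 32.9% higher and 30.8% lower. The median over the 10 genes was 0.31 and over all tested genes 0.02. The genes of 1 pathway went in opposite directions. GDCP, SHMT1, GLYK, CATA, CATB, and GLO3 were higher at 36 DAH, GLO1, GDCH, and HPR1 were lower, and CATC did not pass the test (0.02, adjusted p = 0.881).

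The subunits GDCP and GDCH of glycine decarboxylase moved apart. At 36 DAH GDCP read 1444, 1492, and 1386 CPM in FL and 1333, 1445, and 1489 CPM in SL, above all libraries of 28 and 44 DAH of the same leaf. At 36 DAH GDCH read 193, 196, and 177 CPM in FL and 114, 122, and 194 CPM in SL, below all libraries of 28 and 44 DAH of the same leaf. The deviation was 0.44 for GDCP (SE 0.05, adjusted p = 1.91e-09) and -0.84 for GDCH (SE 0.10, adjusted p = 1.44e-08).

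The last steps of the cycle also went apart. HPR1 at 36 DAH read 1609, 1619, and 1456 CPM in FL and 1309, 1481, and 1071 CPM in SL, below all libraries of 28 and 44 DAH of the same leaf. Its deviation was -0.68 (SE 0.06, adjusted p = 3.57e-11). GLYK at 36 DAH read 378, 390, and 355 CPM in FL and 274, 308, and 429 CPM in SL, above its neighbours without overlap in FL and with overlap in SL. Its deviation was 0.62 (SE 0.08, adjusted p = 1.19e-07).

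Among the catalases, CATA at 36 DAH read 88.5, 59.8, and 58.1 CPM in FL and 141, 77.6, and 86.3 CPM in SL, above all libraries of 28 and 44 DAH of the same leaf. Its deviation was 1.01 (SE 0.20, adjusted p = 5.67e-05), still below its level at 4 DAH. CATB at 36 DAH read 80.7, 68.0, and 69.7 CPM in FL and 76.3, 87.6, and 65.4 CPM in SL, and deviated by 0.60 (SE 0.08, adjusted p = 2.97e-07). The groups of CATB did not overlap in FL, and in SL 1 library of 28 DAH lay within the range of 36 DAH.

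The deviation of GLO1 was -0.41 (SE 0.04, adjusted p = 2.73e-09), with overlap between the libraries in both leaves, and that of SHMT1 was 0.21 (SE 0.05, adjusted p = 0.000433), which was lost without replicate 2. That of GLO3 was 0.41 (SE 0.18, adjusted p = 0.0445) and was lost without replicate 1, without the filter on low values, and in the fit that had the replicate number as a block. Within single leaves, 9 genes were called in FL (53.2% of all genes) and 7 in SL (51.2%), where SHMT1 and GLO3 were not. In FL the call of GLO1 was lost without quantile normalization and with edgeR (adjusted p up to 0.0908). That of GLO3 was lost in FL without replicate 1, and that of CATA without replicate 3. Step by step, 7 genes were called from 28 to 36 DAH (57.9% of all genes) and 9 from 36 to 44 DAH (62.2%).

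Genes of the circadian clock also differed between 36 DAH and its neighbours. GI, a clock gene, read 484, 466, and 594 CPM at 28 DAH in FL, 19.9, 21.6, and 24.7 CPM at 36 DAH, and 621, 561, and 617 CPM at 44 DAH. All 6 clock genes followed (CCA1, PRR1, GI, PRR37, PRR73, and PRR95) were called, with deviations over both leaves from -4.77 for GI to 2.96 for PRR95. CAB2R, an antenna protein gene of the green leaf list, deviated by 2.34, and RBCS-A and RBCS-C by -0.47 each. RCA, also on that list, had the same quantile-normalized value of 13.2 in every library, so the fit cannot show its change. At 36 DAH RCA read 11633, 11197, and 10270 CPM in FL and 13933, 15591, and 13190 CPM in SL. These values lay above all its libraries of 28 and 44 DAH of the same leaf. The senescence markers SGR, NYC1, and NAP deviated by 0.47, -0.46, and 0.21. The part of these genes in the result for photorespiration and catalase was not tested.

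**Figure D4:**
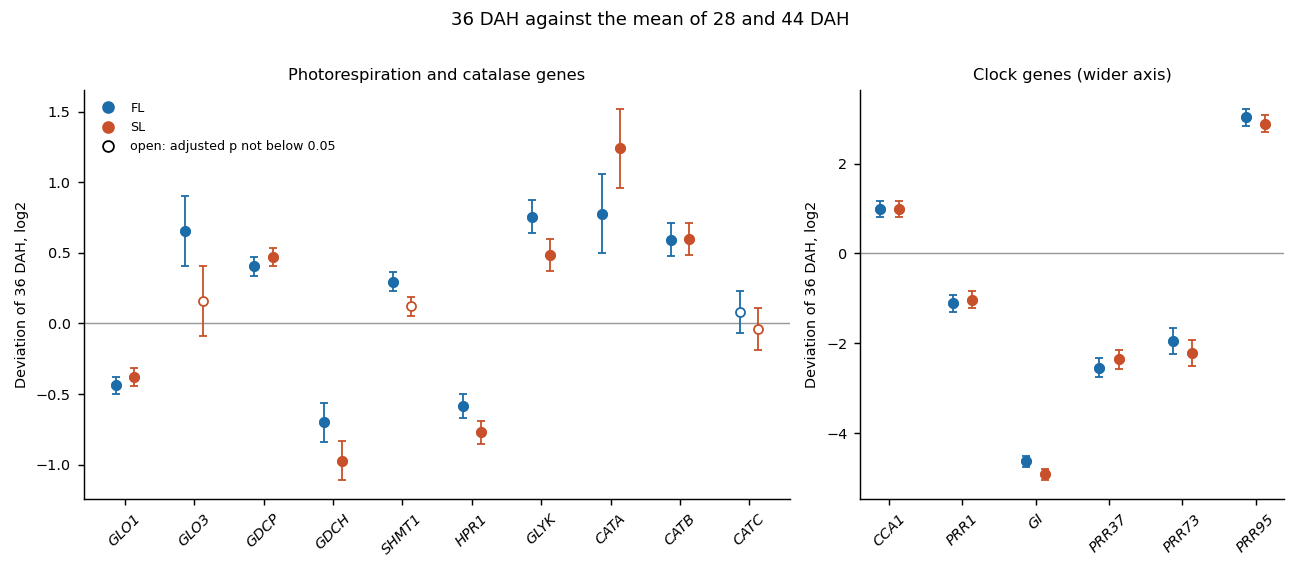
Deviation of 36 DAH from the mean of 28 and 44 DAH (log2, y axis) in FL (blue) and SL (orange), with the SE as bars, for the 10 genes (left) and 6 clock genes (right, wider axis), with open circles where the adjusted p was not below 0.05. GDCP and GDCH lie on opposite sides of 0 in both leaves, as do GLYK and HPR1.

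The fourth comparison asked whether FL and SL took different courses after 4 DAH, as an interaction over all 5 changes from 4 DAH. It was called for 4 of the 10 genes, where 20.2% of all tested genes were called: GDCH (adjusted p = 0.0293), GLO3 (adjusted p = 0.0296), SHMT1 (adjusted p = 0.0353), and GLYK (adjusted p = 0.0379). Without quantile normalization the call of SHMT1 was lost (adjusted p = 0.18) and HPR1 was called (adjusted p = 0.0195, against 0.0766 with it). Leaving out any 1 replicate left 0 to 2 genes called, and leaving out replicate 2 of 20 DAH in both leaves left 1, GDCH.

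Other genes of photorespiration that the reference table named were GS2, the chloroplast glutamine synthetase, Fd-GOGAT, the ferredoxin-dependent glutamate synthase, and the glycolate oxidases GLO4 and GLO5. GS2 and Fd-GOGAT take up the ammonia that the glycine step releases. From 4 to 44 DAH over both leaves, 1 of these 4 genes rose (GLO5, 0.66, adjusted p = 1.54e-12) and 1 fell (GS2, -0.57, adjusted p = 5.64e-09). At 20 DAH GLO5 (0.53) and Fd-GOGAT (0.42) had risen and GLO4 had fallen (-0.69, adjusted p = 1.02e-05), and neither rise was called without quantile normalization (adjusted p = 0.099 and 0.328). At 28 DAH GLO5 had risen by 0.70 (adjusted p = 6.89e-13) and GS2 had fallen by 0.48 (adjusted p = 1.91e-07), and at 36 DAH limma and edgeR called 0 of the 4 genes, with 0 at an unadjusted p below 0.05. At 12 DAH GS2 and GLO5 were each higher by 0.22, which was not called without quantile normalization (adjusted p = 0.723 and 0.543). GS2 read 2148, 1868, and 1710 CPM in FL at 4 DAH and 870, 925, and 875 CPM at 44 DAH, without overlap.

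At 36 DAH, 2 of the 4 genes deviated from their neighbours. GS2 was higher (0.63, SE 0.06, adjusted p = 7.26e-11), like GDCP and GLYK, and GLO5 was lower (-0.71, SE 0.04, adjusted p = 2.31e-14), like GLO1. Between the leaves at 20 DAH, GS2 was called higher in FL (0.24, adjusted p = 0.0481), reversed without quantile normalization (-0.08), and GLO4 lower (-0.43, adjusted p = 0.0491). Averaged over time, GLO4 was lower in FL (-0.21, adjusted p = 0.00925) and Fd-GOGAT higher (0.24, adjusted p = 0.0186), the second of which was lost without quantile normalization (adjusted p = 0.133). The glycolate oxidase genes are related in sequence, and how reads that fit more than 1 of them were assigned was not tested.

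By the criteria of the study for senescence-associated genes (SAGs), which ask for correlated replicate profiles, a change over time in an analysis of variance with Bonferroni correction, and a log2 change of at least 1, CATA was a SAG in FL and in SL and HPR1 in SL. That is 1 of the 10 genes in FL and 2 in SL, where 14.2% and 12% of all 38026 genes were SAGs. The 38026 genes include 4963 without a read in any library, whereas all 10 genes passed the filter on low values. A gene without reads cannot be a SAG, so the SAG shares given here are lower than among genes with reads. Whether the 10 genes held more or fewer SAGs than other expressed genes was not tested. HPR1 was a Shared_SAG, a class of genes with leaf differences below 0.58 at all time points that held 8.56% of all genes. CATA was a Diff_SAG, a class with a leaf difference of at least 0.58 and an unadjusted p below 0.05 at the same time point, at 1 or more of them, that held 7.69% of all genes. Without quantile normalization CATA was a Shared_SAG. The change from 4 DAH and the leaf difference were taken here from smoothed profiles, and without smoothing them GLO3 was also a SAG in SL and a Diff_SAG, where the classes held 14.2% and 10.2% of all genes.

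Over the 12 group means, the 10 genes did not share 1 profile. The Pearson correlation was 0.765 between GDCP and SHMT1, 0.750 between GLO1 and HPR1, and 0.706 between GLYK and CATB. It was -0.902 between HPR1 and CATA, -0.764 between GLO1 and GLYK, and -0.513 between GDCP and GDCH, the subunits of 1 complex. These are descriptions over 12 means that share libraries and scaling. Of all tested genes, the 3 profiles most like that of CATA were those of OS07G0185200 (0.986), OS11G0110066 (0.985), and OS07G0615400 (0.977). For GLO1 they were OS07G0249900 (0.977), OS03G0130700 (0.970), and OS08G0416100 (0.969). For CATB they were OS01G0708900 (0.965), OS06G0231300 (0.960), and OS06G0597200 (0.958), and for CATC OS05G0299200 (0.982), OS08G0102100 (0.971), and OS06G0579600 (0.971).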

How the data were processed

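The authors called bases with CASAVA 1.8.2, trimmed adapters with cutadapt 1.2.1, aligned reads of a stranded library kit to IRGSP-1.0 with TopHat2 2.0.10 and Bowtie, counted them on genes with HTSeq 0.6.1, and deposited a linear signal per gene, CPM on library sizes scaled by the TMM method of edgeR. Reads were recovered from the steps of the values: 100% of the values above 0 were whole multiples within 0.01 reads.

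For the tests, log2(CPM + 1) was quantile-normalized as in the study's methods, and the 22057 genes that reached a value of 1 in 3 libraries were fitted in 12 groups with limma 3.58.1 (with an intensity trend) under R 4.3.3. Benjamini-Hochberg adjustment was made for every contrast separately, across the tested genes. The named genes are all 10 genes, the clock, senescence, green leaf and grain lists, other photorespiration genes, and, for GLO1, CATA, CATB, and CATC, the 3 genes with the most similar profile. Other photorespiration genes were to be found by description, but the table used here (RefSeq, ASM3414082v1) gives none, so those with a matching synonym were taken. By a synonym, it named 5 of the 10 genes. Listed identifiers that it does not name were not used here. No coordinates are printed, since no annotation of the build was used. The 10 genes were chosen by gene identifier and not by their values, but earlier results of these data were known when they and the lists were set.

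Alternatives were no quantile normalization, a pseudocount of 0.1, no filter, the replicate number as a block, leaving out each replicate, limma without the trend, and the quasi-likelihood test of edgeR 4.0.16 on the recovered reads, which called 10702 of 23424 genes for FL minus SL averaged over time. SAG criteria were computed with SciPy 1.17.1, pandas 2.3.3, and numpy 2.4.6 under Python 3.11.15, and matplotlib 3.10.9 drew the figures. The fits were tested on simulated data. A count of 3 reads corresponded to 0.106 to 0.511 CPM, which covers counting error only.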

Additional observations from a re-analysis of the deposited data

Results flagged for a closer look

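The change over time was called different between FL and SL, by the interaction term of the fit across all genes, for GLO3 (adjusted p = 0.0296), GDCH (adjusted p = 0.0293), SHMT1 (adjusted p = 0.0353), and GLYK (adjusted p = 0.0379). Of the 9 alternative settings, GDCH kept this call under 7, GLYK under 5, and GLO3 and SHMT1 under 3 each. For GDCH and GLYK the difference was largest in the change from 4 to 28 DAH (-0.95 and -0.80, FL minus SL), and for GLO3 in that from 4 to 20 DAH (-1.37). These values were not called without replicate 1 or without replicate 2, and that of GLO3 also not without replicate 3, without replicate 2 of 20 DAH in both leaves, with a pseudocount of 0.1, and with edgeR. For SHMT1 no single change passed the test.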

How the results depend on the processing

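Of 159 calls in 330 tests of the 10 genes, 81 were kept under all 9 alternative settings. Among values called in the main fit or in the alternative, 13 over all alternatives turned direction. All of these 13 concerned GLO1 and GDCP. Changes of direction in values called in neither fit were not counted. Without quantile normalization and with edgeR, in this order, FL minus SL of GLO1 at 20 DAH was -0.0798 and -0.0864, and its change from 4 to 20 DAH in FL was -0.0997 and -0.0672. FL minus SL in the change of GLO1 to 20 DAH was -0.20 and -0.16, and in its change to 28 DAH it was -0.0959 and -0.0485. The change of GDCP in FL was -0.0685 and -0.0362 at 12 DAH, then -0.53 and -0.50 in the fits of 20 DAH. Without quantile normalization, the change of GLO1 from 4 to 20 DAH over both leaves was -0.0015.

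Without quantile normalization, 1 gene differed between leaves at 12 DAH and 2 at 28 DAH, 4 had changed at 28 DAH and 4 at 36 DAH, and 2 were Shared_SAGs and 0 Diff_SAGs. With edgeR, the values were 1 and 1 between leaves at 12 and 28 DAH, and 4 and 4 for the changes at 28 and 36 DAH. With no filter on low values, 1 gene differed between leaves at 4 DAH, 3 at 20 DAH, and 1 in its change over time. In alternatives chosen after seeing the data, leaving out replicate 2 of 20 DAH left 2 genes called between leaves at 20 DAH and 1 in the change over time, and taking the SAG criteria without smoothing the changes gave 2 Diff_SAGs. Without SL 44 DAH replicate 2 and without 36 DAH, 5 and 6 genes were called in the change over time, and 4 and 5 for the average leaf difference. The cause of these shifts was not tested.

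Leaving out each replicate in turn, the genes called between leaves ranged from 1 to 1 at 4 DAH, 0 to 2 at 12 DAH, 1 to 3 at 20 DAH, 1 to 5 at 28 DAH, 0 to 1 at 36 DAH, 0 to 0 at 44 DAH, and 4 to 4 on average. For changes from 4 DAH they ranged from 3 to 4, 5 to 7, 5 to 7, 4 to 7, and 5 to 6 in order of time, and from 37 to 54 of 100 tests within leaves (55 with all replicates). For the deviation of 36 DAH they ranged from 8 to 9, for the steps before and after it from 6 to 8 and 8 to 10, and for the difference in the change over time from 0 to 2.

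The replicate numbers were not taken as pairs, since 11 of 18, not all, FL and SL pairs with the same number deviated together with a correlation over 0.1 (range -0.118 to 0.605). The mean correlation was 0.173 with the same number and -0.0888 with different numbers, and 20 of 36 libraries correlated best with their own number in the other leaf, a hint from the data and not from the design. With the replicate number as a block, 319 of 330 results kept their call, 8 lost and 3 gained one, and 1 gene was called between leaves at 36 DAH. GLO3, with as few as 6 reads in a library, is the gene most limited by depth.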

Other observations

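The ratio of GDCH to GDCP within a library, examined after their values at 36 DAH were seen, was 0.128 to 0.134 in FL at 36 DAH, against 0.288 to 0.294 at 28 DAH and 0.369 to 0.404 at 44 DAH. In SL it was 0.0841 to 0.130 at 36 DAH, against 0.245 to 0.274 at 28 DAH and 0.294 to 0.471 at 44 DAH. The ratio does not depend on the scaling between libraries, and it is given in CPM, not per length, so only its change has a meaning. The log2 difference of 36 DAH from 28 and 44 DAH was -1.37 in FL and -1.64 in SL. In each leaf, 3 of 3 libraries of 36 DAH lay below all libraries of 28 and 44 DAH. In SL the ratio was also low earlier, at 0.108 to 0.133 at 4 DAH and 0.129 to 0.140 at 20 DAH, overlapping 36 DAH. It was 0.153 to 0.198 in SL at 12 DAH. In FL it was 0.251 to 0.252 at 4 DAH, 0.224 to 0.244 at 12 DAH, and 0.206 to 0.241 at 20 DAH, all above 36 DAH. No test was made, since the ratio was chosen for its pattern at 36 DAH. At 4 DAH the median ratio was 0.252 in FL and 0.117 in SL, without overlap between the leaves.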
